A study of Mus musculus with 6 samples.

Results

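The genes described here are 5 receptors of the T cell surface that tune the response to antigen: Cd28 (ENSMUSG00000026012), Icos (ENSMUSG00000026009), Ctla4 (ENSMUSG00000026011), Pdcd1 (ENSMUSG00000026285) and Lag3 (ENSMUSG00000030124). They were taken by gene ID from a table of ribosome footprint counts for 22322 genes, and each of the 5 was found in it once. The rule uses no measured value, but the set was chosen with earlier results of these data known. Ribosome profiling sequences the short mRNA fragments that ribosomes cover. The study followed mRNA decay with and without translation during T cell activation, and the counts used here are from its starting point. Of the libraries used, 3 are from activated CD4+ T cells, exposed to magnetic beads that carry antibodies to CD3 and CD28, and they are compared with 3 libraries from resting CD4+ T cells. Both groups are C57BL/6J, from female mice aged 6 weeks, whose splenic and lymph node cells were purified by negative selection. All 6 libraries are labelled untreated at 0 h, read as time in an inhibitor of transcription or translation. Neither the length of the bead stimulus is given in the sources used here, nor whether each numbered replicate (2, 3 and 4 in both groups) was a separate animal or a pool. P-values therefore measure the spread between these libraries, which may in part be technical.

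A T cell needs a signal from its antigen receptor and a second signal from costimulatory receptors. CD28 gives that second signal when it binds CD80 or CD86 on an antigen-presenting cell, and CTLA-4 binds the same ligands more tightly and restrains the response. ICOS is a costimulator with its own ligand, known for its role in the help that T cells give to B cells. PD-1, the product of Pdcd1, is an inhibitory receptor for PD-L1 and PD-L2. LAG-3 is an inhibitory receptor related to CD4 that binds MHC class II. It lies outside the CD28 family proper, to which the other 4 belong. In conventional T cells CD28 is known to be present before activation, while the others are known mostly as molecules induced by it. Regulatory T cells are known to carry CTLA-4 without stimulation.

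In the RefSeq annotation of GRCm38.p6, Cd28, Ctla4 and Icos are neighbours on chromosome 1. Cd28 lies at chr1:60746388-60773359, Ctla4 at chr1:60909025-60915832 and Icos at chr1:60960773-61000322. The next protein-coding gene after Cd28 is Ctla4, 135665 bases on, and the next after Ctla4 is Icos, 44940 bases on. Pdcd1 lies farther along the same chromosome at chr1:94038305-94052553. Lag3 is at chr6:124904359-124912434, with 16111 bases between it and Cd4. No other annotated gene overlaps the span of any of the 5, so none shares exons with a gene on the other strand in this annotation.

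Promoter windows of 300 bases, from 250 before the annotated start, were at hand for 2 of the 5 genes, from RefSeq with build GRCm38.p6. These genes, Ctla4 and Pdcd1, are shown because no other member had a window at hand, whatever their change on activation. Both windows are written 5′ to 3′ on the strand of the gene. Capitals mark the motifs searched on both strands: GGAAA, the core bound by NFAT, a factor activated by calcium after antigen receptor signalling; TGANTCA, bound by AP-1; and TATAAA, the TATA box. On the opposite strand GGAAA reads as TTTCC. The Ctla4 window is chr1:60908775-60909074 on the plus strand, and the Pdcd1 window is chr1:94052504-94052803 on the minus strand.
Ctla4: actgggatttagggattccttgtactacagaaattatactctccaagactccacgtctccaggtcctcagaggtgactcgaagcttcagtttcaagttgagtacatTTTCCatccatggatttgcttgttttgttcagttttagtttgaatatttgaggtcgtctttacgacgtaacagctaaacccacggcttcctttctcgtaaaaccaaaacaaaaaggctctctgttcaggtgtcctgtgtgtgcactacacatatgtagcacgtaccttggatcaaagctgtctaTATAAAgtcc
Pdcd1: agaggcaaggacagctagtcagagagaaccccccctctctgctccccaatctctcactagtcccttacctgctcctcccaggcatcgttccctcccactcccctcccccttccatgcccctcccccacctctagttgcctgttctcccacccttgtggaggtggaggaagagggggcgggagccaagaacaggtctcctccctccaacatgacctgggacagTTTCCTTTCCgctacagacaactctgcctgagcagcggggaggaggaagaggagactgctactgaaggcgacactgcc

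The Pdcd1 window held 2 adjoining copies of the NFAT core just before the start, and the Ctla4 window held 1 copy farther upstream. That core was in 61.3% of 32851 promoter windows of the same length. The TATA box was in the Ctla4 window, past the annotated start, and not in that of Pdcd1, against 13.6% of all windows. AP-1 letters were in neither, against 7.81% of all windows. These matches describe the letters and show no binding.

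Counts in coding sequence (CDS) summed to between 511483 and 1074656 in the activated libraries and to between 437200 and 594508 in the resting libraries. Values in CPM below are CDS counts per 1000000, over library sizes scaled by TMM, which takes the typical gene as unchanged, so a rise or fall is relative to that gene. The TMM factors were 0.88 to 0.894 in the activated libraries and 1.12 to 1.13 in the resting libraries. Scaling therefore raised every activated value relative to the resting values. No marker of T cells or of other cells could be checked, since the table pairs none of its IDs with a symbol and only the 5 members are named through the definition of the set. In these bulk libraries fewer cells of a type and less RNA per cell cannot be told apart. No mRNA levels were analysed here, so more mRNA and more ribosomes per mRNA cannot be told apart either.

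In activated cells the footprints of the costimulator Icos rose 2.10-fold and those of Pdcd1, which encodes the inhibitory receptor PD-1, rose 1.71-fold. Cd28 and Ctla4 showed no difference that passed the test, and Lag3 had too few counts to enter it. Of the 5 members, 4 passed the low-count filter and 2 of these changed (edgeR quasi-likelihood test, adjusted p under 0.05), both upward. Over all 6775 genes tested, 45.5% changed and 24.1% were higher in activated cells. A count of 2 in 4 is near that background. The CPM values of the groups did not overlap for 2 of the 4, Icos and Pdcd1, against 54.8% of all genes tested. The median log2 change of the 4 was 0.48, and that of all genes tested was -0.04.

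**Figure D1:**
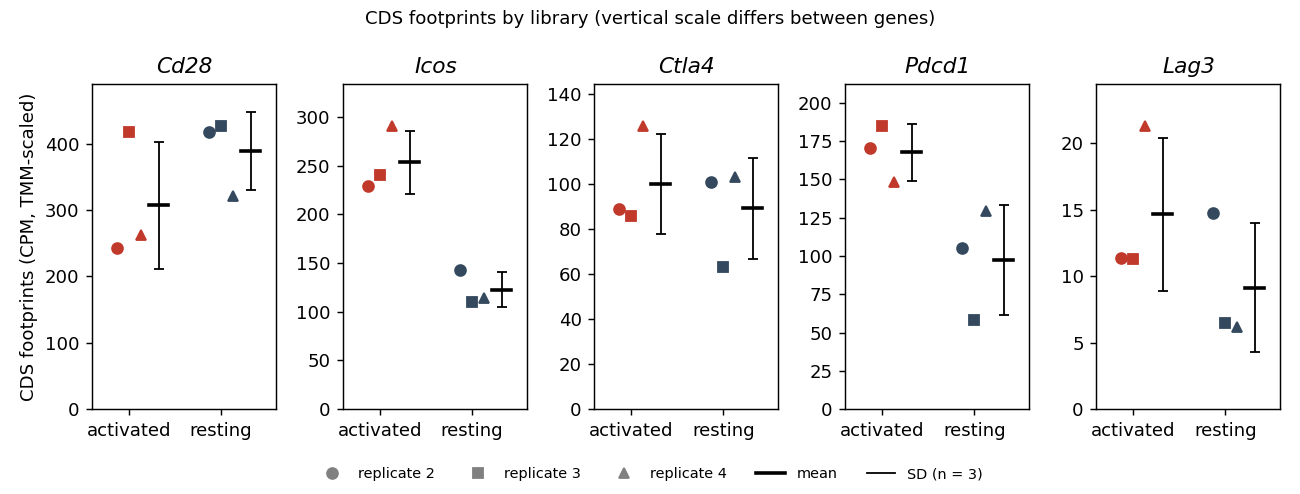
CDS footprints (vertical axis, TMM-scaled CPM, a separate scale for each gene) of the 5 genes in activated cells and in resting cells. Each point is a library, its shape gives the replicate number, and the thick bar with its whiskers is the mean and SD of 3 libraries. The activated Icos points (229.5 to 291 CPM) and Pdcd1 points (148 to 185 CPM) lie above all resting points, and the groups overlap for Cd28, Ctla4 and Lag3.

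Among the costimulators, Cd28 had 107, 332 and 246 CDS counts in activated replicates 2, 3 and 4, and 199, 263 and 209 in resting replicates 2, 3 and 4. Scaled, this was 243, 417 and 262 CPM in activated cells, against 418, 427 and 321 CPM in resting cells. Activated replicate 3 lay within the resting range and the other two activated libraries lay below it. The means were 307 ± 95.6 CPM in activated cells and 389 ± 58.6 CPM in resting cells (SD, n = 3 each), with -0.33 as the fitted log2 change (SE 0.20, 95% interval -0.74 to 0.09, edgeR adjusted p = 0.193). That interval holds both no change and a fall to 0.597 of the resting level, and the depth and spread here could not tell these apart. The call depended on 1 library and on the scaling. Leaving out activated replicate 3 gave -0.59 (edgeR adjusted p = 0.0215), and with library totals alone, which moved the median of all genes to -0.38, it was -0.66 (edgeR adjusted p = 0.0103).

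Icos, the other costimulator of the set, was the member with the lowest adjusted p. It had 101, 191 and 273 CDS counts in activated replicates 2, 3 and 4, and 68, 68 and 74 in resting replicates 2, 3 and 4. These are 229.5, 240.1 and 291 CPM in activated cells, against 143, 110.3 and 114 CPM in resting cells. Every activated library was above every resting library, and the lowest activated value was well clear of the highest resting one. Footprints averaged 253 ± 32.6 CPM in activated cells and 122 ± 17.98 CPM in resting cells (SD, n = 3 each), a 2.10-fold rise (95% interval 1.63 to 2.70). On the log2 scale this was 1.07 (SE 0.17, edgeR adjusted p = 9.71e-05), and 86.4% of the genes tested had the same or a lower change. It passed the threshold under each of the 17 alternatives run, with log2 changes between 0.73 and 1.19.

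Among the inhibitory receptors, Ctla4 had 39, 68 and 118 CDS counts in activated replicates 2, 3 and 4, and 48, 39 and 67 in resting replicates 2, 3 and 4. In CPM this was 88.6, 85.5 and 126 in activated cells, against 101, 63.3 and 103 in resting cells. The groups overlapped, with 2 of the activated libraries between the lowest and the highest resting values. Mean levels were 99.9 ± 22.3 CPM in activated cells and 89.1 ± 22.4 CPM in resting cells (SD, n = 3 each), a log2 change of 0.19 (SE 0.23, 95% interval -0.29 to 0.68, edgeR adjusted p = 0.517). The interval covers changes from 0.816-fold to 1.6-fold. The sign was not settled: it was -0.14 with library totals alone and -0.01 in counts over all exons.

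Pdcd1, which encodes PD-1, had 75, 147 and 139 CDS counts in activated replicates 2, 3 and 4, and 50, 36 and 84 in resting replicates 2, 3 and 4. Its levels were 170.4, 185 and 148 CPM in activated cells, against 105, 58.4 and 129 CPM in resting cells. In these scaled values the groups did not overlap, although resting replicate 4 came close to activated replicate 4. The resting libraries were the more scattered. Per 1000000 CDS counts without TMM the groups overlapped, with resting replicate 4 at 141 and activated replicate 4 at 129. That comparison gave an exact permutation p = 0.2, or 0.333 adjusted over the 5 members. The mean was 168 ± 18.5 CPM in activated cells and 97.5 ± 36.0 CPM in resting cells (SD, n = 3 each), a 1.71-fold rise (95% interval 1.22 to 2.40). That equals 0.78 on the log2 scale (SE 0.23, edgeR adjusted p = 0.0115), at or above that of 80.6% of the genes tested. Without resting replicate 3, its lowest library, the change was 0.51 on that scale (edgeR adjusted p = 0.0693), and with library totals alone it was 0.44 (edgeR adjusted p = 0.117), so this call did not hold in either case.

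Lag3 was the scarcest member by count and did not pass the filter. It had 5, 9 and 20 CDS counts in activated replicates 2, 3 and 4, and 7, 4 and 4 in resting replicates 2, 3 and 4. That is 11.4, 11.3 and 21.3 CPM in activated cells, against 14.7, 6.49 and 6.15 CPM in resting cells. Resting replicate 2 lay above 2 of the activated libraries, so the groups overlapped. Fitted without a filter, the log2 change was 0.85 (SE 0.49, 95% interval -0.12 to 1.81, edgeR adjusted p = 0.227). At this depth a difference between 0.919-fold and 3.52-fold could not be told apart. Counts over all exons, which add the 5' UTR, were 9, 13 and 32 in activated replicates 2, 3 and 4 and 9, 5 and 5 in resting replicates 2, 3 and 4. Fitted without a filter they differed by 1.18 on the log2 scale (SE 0.43, edgeR adjusted p = 0.0268). In that setting 3 of the 5 members, Lag3 among them, were under 0.05, against 26.7% of all 13690 genes, a background that takes in genes with very few counts. Lag3 failed the filter and had 54 of these counts over the activated libraries and 19 over the resting libraries. Its value there is a description. With the low-count filter, which Lag3 did not pass, counts over all exons gave 2 members changed and 3444 of 7490 genes changed. In the fit with no filter, the adjusted p of Lag3 rose above 0.05 without activated replicate 4, where the log2 difference fell to 0.72 (edgeR adjusted p = 0.357). It also did so without resting replicate 3 (0.97, edgeR adjusted p = 0.148) or resting replicate 4 (0.96, edgeR adjusted p = 0.156), with differences closer to that of all libraries.

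**Figure D2:**
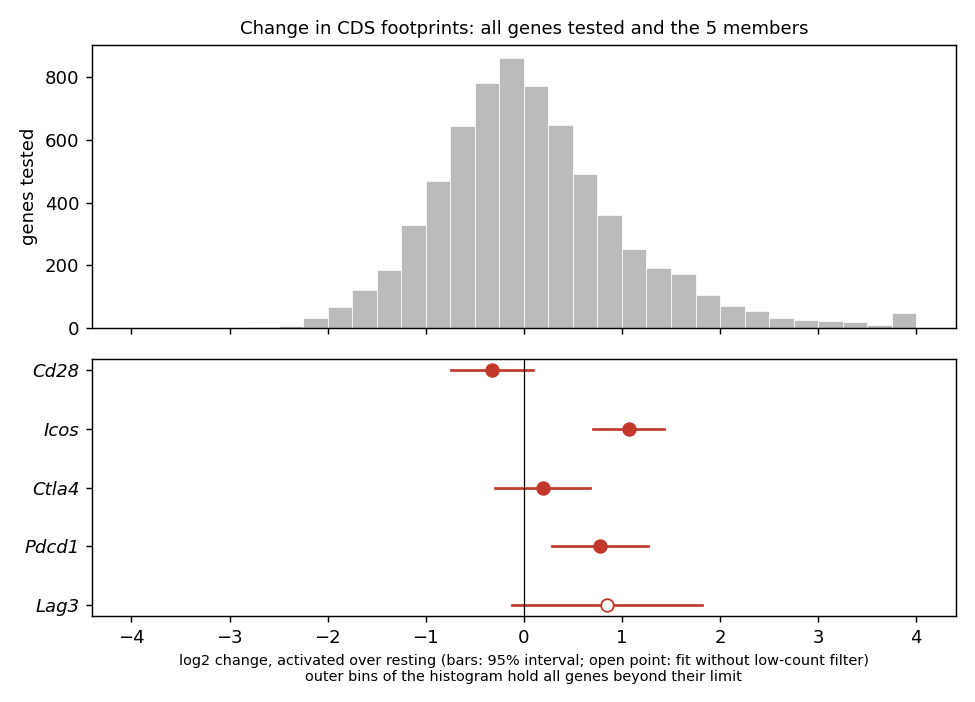
The upper panel counts the 6775 genes tested by their log2 change in CDS footprints, activated over resting (horizontal axis). The lower panel gives each member's log2 change as a point with its 95% interval as a bar, and an open point marks Lag3, fitted without the low-count filter. The bars of Icos and Pdcd1 lie above 0, and those of Cd28, Ctla4 and Lag3 cross it.

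How the members stood to one another was compared within each library, where no scaling between libraries enters. The ratio of raw CDS counts of 2 genes depends on their lengths, so only its difference between the groups is read. All 10 pairs of the 5 genes were compared by exact permutation, two-sided, over the 20 ways to assign the libraries. The smallest p this can give is 0.1, so it cannot reach 0.05, and p-values were adjusted over the 10 pairs. The groups did not overlap for 3 of the 6 pairs among the 4 members that passed the filter, near the 55.5% of all pairs of genes that passed it. They overlapped for the 4 pairs with Lag3, which have no such background.

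These 3 pairs were Icos with Cd28, Pdcd1 with Cd28, and Ctla4 with Icos. Per Cd28 count, there were 0.944, 0.575 and 1.11 Icos counts in activated replicates 2, 3 and 4, and 0.342, 0.259 and 0.354 in resting replicates 2, 3 and 4. The ratio was 2.67-fold higher in activated cells, a log2 difference of 1.42 (exact permutation p = 0.1, adjusted 0.333). Pdcd1 counts per Cd28 count were 0.701, 0.443 and 0.565 in activated replicates 2, 3 and 4, and 0.251, 0.137 and 0.402 in resting replicates 2, 3 and 4. That is a 2.32-fold higher ratio, a log2 difference of 1.21 (exact permutation p = 0.1, adjusted 0.333). For both genes the ratio to Cd28, the receptor known to be present before activation, was higher in all 3 activated libraries than in any resting library.

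The third pair joins neighbouring genes of chromosome 1. Ctla4 counts per Icos count were 0.386, 0.356 and 0.432 in activated replicates 2, 3 and 4, and 0.706, 0.574 and 0.905 in resting replicates 2, 3 and 4. The ratio was lower in every activated library, a log2 difference of -0.87 (exact permutation p = 0.1, adjusted 0.333). Ctla4 relative to Cd28, the pair that competes for the same ligands, had ratios of 0.364, 0.205 and 0.480 in activated replicates 2, 3 and 4, and 0.241, 0.148 and 0.321 in resting replicates 2, 3 and 4. These overlapped, with a log2 difference of 0.54 (exact permutation p = 0.4, adjusted 0.5). The other 6 pairs overlapped too, and Pdcd1 against Icos differed by -0.20 on the log2 scale (exact permutation p = 0.7, adjusted 0.778), changing sign without resting replicate 4.

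**Figure D3:**
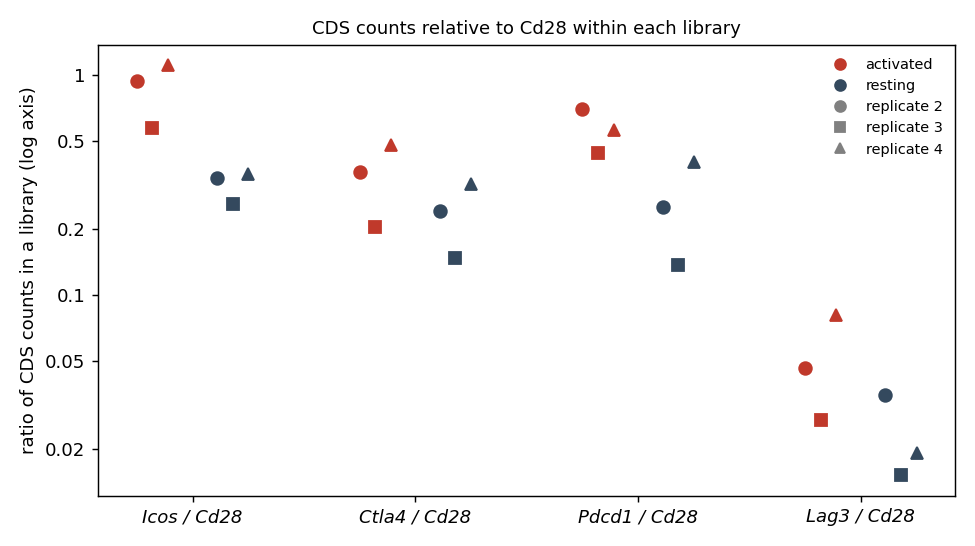
CDS counts of Icos, Ctla4, Pdcd1 and Lag3 per Cd28 count in the same library (vertical axis, log scale). Each point is a library, colour gives the state and shape the replicate number. Activated points lie above all resting points for Icos (0.575 to 1.11 against 0.259 to 0.354) and Pdcd1 (0.443 to 0.701 against 0.137 to 0.402). Replicate 3 is the lowest point of each group for all 4 genes, which share the Cd28 count of that library.

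Leader footprints gave a further readout from the same libraries. Ribosomes in the 5' UTR can be initiating ribosomes near the start codon or ribosomes on upstream reading frames, and how fragments across the start codon were assigned is not stated. Only Cd28 and Ctla4 had enough 5' UTR counts to pass the filter there, and 0 of these 2 changed (edgeR quasi-likelihood test, 0 also at an unadjusted p under 0.05 and 0 with DESeq2), against 42% of 2200 genes tested. Cd28 had 22, 67 and 59 leader counts in activated replicates 2, 3 and 4, and 28, 44 and 46 in resting replicates 2, 3 and 4. The fitted difference was -0.26 on the log2 scale (SE 0.28, 95% interval -0.86 to 0.33, edgeR adjusted p = 0.480). Ctla4 had 7, 16 and 36 leader counts in activated replicates 2, 3 and 4, and 15, 11 and 23 in resting replicates 2, 3 and 4, or -0.35 on the log2 scale (SE 0.43, 95% interval -1.25 to 0.56, edgeR adjusted p = 0.545).

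Leader counts of the other 3 genes were few, and most were in activated cells. Icos had 8, 4 and 10 leader counts in activated replicates 2, 3 and 4, and 0, 0 and 2 in resting replicates 2, 3 and 4. Summed and scaled, 22 counts in activated cells against 2 in resting cells are a 7.47-fold higher level, with a 95% counting interval of 1.84 to 65.5. A fit without a filter put the Icos leader at 2.80 on the log2 scale (SE 0.85, edgeR adjusted p = 0.0119). In that fit 12.5% of 8868 genes with any leader count were called, against 42% of the 2200 genes that passed the filter. Icos and Lag3 failed the filter and enter this fit mainly through their activated counts. These values and the adjusted p-values that follow are a description, from which no test is read. For the Icos leader the adjusted p was above 0.05 without activated replicate 4 (edgeR adjusted p = 0.0568), resting replicate 2 (edgeR adjusted p = 0.0629) or resting replicate 3 (edgeR adjusted p = 0.124). Without resting replicate 4 the resting libraries hold no Icos leader count, so no fold is given. Lag3 had 4, 4 and 12 leader counts in activated replicates 2, 3 and 4, and 1 in each resting library. Its summed level was 4.53-fold higher (20 counts in activated cells against 3 in resting cells, 95% counting interval 1.34 to 23.8), and the fit without a filter gave 2.12 on the log2 scale (SE 0.81, edgeR adjusted p = 0.0650). Without activated replicate 4, which held 12 of the 20 activated counts, this was 1.51 (edgeR adjusted p = 0.458). It was 2.04 to 2.23 without each resting library (edgeR adjusted p = 0.109 to 0.193), and 1.86 with library totals alone (edgeR adjusted p = 0.131). Its adjusted p was under 0.05 without activated replicate 2 (2.25, edgeR adjusted p = 0.0383) or activated replicate 3 (2.42, edgeR adjusted p = 0.0393), and with the scaling factors of the CDS (2.28, edgeR adjusted p = 0.0461). Pdcd1 had 4, 2 and 1 leader counts in activated replicates 2, 3 and 4, and 0, 1 and 0 in resting replicates 2, 3 and 4, too few to compare. All counting intervals here cover counting error only.

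Leader footprints were also set against the CDS of the same gene, over 5238 genes with at least 10 counts in each region over all libraries, of which 0.344% changed (edgeR quasi-likelihood test). Cd28 and Ctla4 had that many leader counts in each group, and neither passed the test. Icos and Lag3 reached the minimum only through their activated libraries, so their values are a description from which no test is read. Pdcd1 did not reach the minimum. Lag3 had 80, 44.4 and 60 leader counts per 100 CDS counts in activated replicates 2, 3 and 4, and 14.3, 25 and 25 in resting replicates 2, 3 and 4. The groups did not overlap for Lag3, as for 17.7% of 5046 genes that also had a CDS count in every library. Each resting value of Lag3 rests on a single leader count. The fitted log2 change of the Lag3 ratio was 1.33 (SE 0.98, 95% interval -0.65 to 3.30). Over each group, leader counts were 37.0% of leader and CDS counts of Lag3 in activated cells (20 of 54, exact 95% interval 24.3% to 51.3%) and 16.7% in resting cells (3 of 18, exact 95% interval 3.58% to 41.4%), and these intervals overlap. Ctla4 had 24.0 ± 6.29 leader counts per 100 CDS counts in activated cells and 31.3 ± 3.06 in resting cells (SD, n = 3 each; log2 change -0.56, SE 0.40, edgeR adjusted p = 0.729). Icos leader counts per 100 CDS counts were 7.92, 2.09 and 3.66 in activated replicates 2, 3 and 4, and 0, 0 and 2.70 in resting replicates 2, 3 and 4 (log2 change 1.74, SE 0.95). For Cd28 the values were 21.6 ± 2.09 in activated cells and 17.6 ± 4.04 in resting cells (SD, n = 3 each; log2 change 0.04, SE 0.32, edgeR adjusted p = 0.984). Each region has its own scaling in this fit, so its log2 changes are relative to the typical gene. Over all genes the ratio was 16.5 ± 3.09 in activated cells and 14.6 ± 0.85 in resting cells (SD, n = 3 each).

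**Figure D4:**
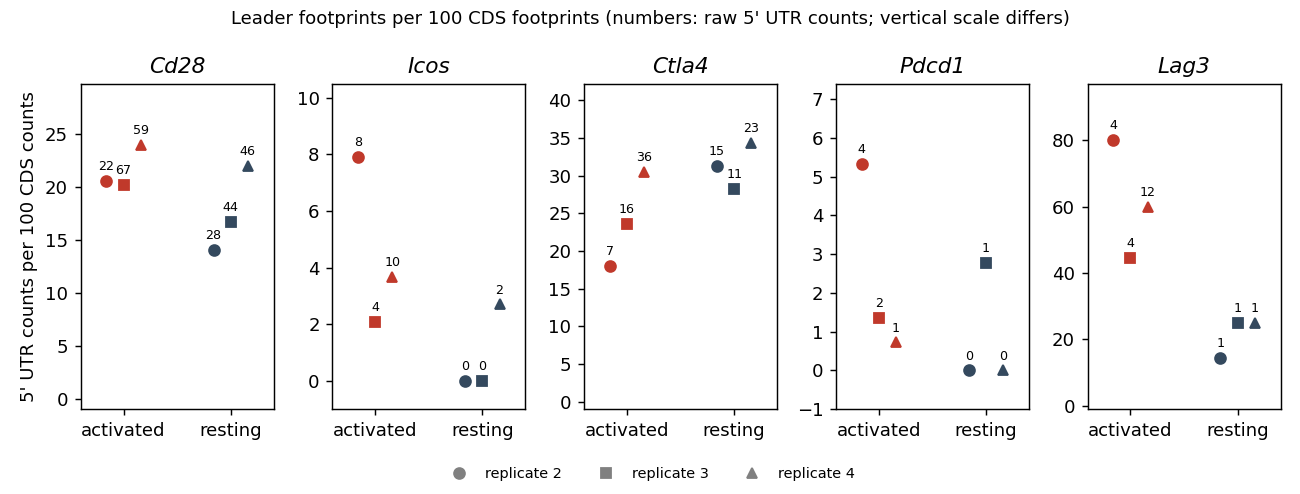
5' UTR counts per 100 CDS counts (vertical axis, a separate scale for each gene) of the 5 genes in each library, activated cells left of resting cells. The number at each point is the raw 5' UTR count and the shape gives the replicate number. For Lag3 the activated points (44.4 to 80) lie above the resting points (14.3 to 25), each of which stands on 1 leader count. For Cd28, Icos, Ctla4 and Pdcd1 the groups overlap.

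The 3' UTR and introns held little of any member. Cd28 had 31 counts in its 3' UTR over the activated libraries and 34 over the resting libraries, and Icos had 16 and 7. Ctla4 had 4 and 8, Pdcd1 had 5 and 1, and Lag3 had 0 in both groups. Intronic counts over a group were at most 7, reached by Cd28 in resting cells.

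Over the 6 libraries, the profiles of Icos and Pdcd1 were the closest pair among the 4 members that passed the filter, and those of Cd28 and Icos the farthest apart. The measure was the Euclidean distance between log2 CPM values centred on each gene's mean, 0.918 for the first pair and 1.88 for the second. The nearest of all genes tested to Icos was ENSMUSG00000024095.14 (distance 0.157, where the median gene lay at 1.59), with 121 ± 13.5 CPM in activated cells and 59.7 ± 12.3 CPM in resting cells (SD, n = 3 each). The nearest to Pdcd1 was ENSMUSG00000046756.10 (distance 0.179, median 1.6), with 64.6 ± 6.61 CPM in activated cells and 34.7 ± 11.9 CPM in resting cells (SD, n = 3 each). The nearest to Cd28 was ENSMUSG00000055447.17 (distance 0.193, median 1.19), with 345 ± 95.3 CPM in activated cells and 446 ± 64.9 CPM in resting cells (SD, n = 3 each). Each of these genes was picked as the one with the smallest distance, so its place below the median and its likeness to the member follow from the choice. The files do not pair these IDs with names.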

How the data were processed

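The members and lists were chosen with earlier results of these data known. The authors deposited 1 table of raw counts per gene, with 36 count columns, 6 for each of 6 libraries; per the file headers these are CDS in 2 counting modes, 5' UTR, 3' UTR, all exons and introns alone. Per the submitters' processing notes, TopHat2 2.0.13, Bowtie 1.1.1.0 and HTSeq were used with mm10. No annotation release, strand setting, trimming step or removal of ribosomal RNA is given in the sources used here. Rows that name no gene were left out: of a library's records in the CDS columns, 65.8% to 79.6% were not uniquely aligned and 11.8% to 14.5% lay in no CDS. Columns were tied to samples by the library name in the labels.

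For the first CDS column, edgeR 4.0.16 under R 4.3.3 was run (filterByExpr, TMM, estimateDisp, glmQLFit, glmQLFTest, two-sided) on the whole table, 6775 genes after the filter, with Benjamini-Hochberg adjustment and a threshold of 0.05. Intervals at 95% use the t distribution on the fit's degrees of freedom. The SE is the size of the log2 change over the square root of F. The 5' UTR was fitted likewise, and relative to the CDS in 1 model with a term per library, for genes with at least 10 counts in each region over 6 libraries, a minimum set after the data were seen. Log2 ratios of pairs used a pseudocount of 0.5. Fits were tested on simulated data. Named genes are the 5 members and the nearest gene of each that passed the filter, at most 2 higher and 2 lower where IDs have no names; that of Ctla4 is left out so. The reference table listed no Ensembl IDs (0 of 22322 matched), so the lists of ligands, other checkpoints, signalling partners, CD28 target genes and cell type markers could not be applied, and no protein sequence was used here. Coordinates and promoters were matched by symbol. Alternatives were other scalings, filters, tools and counting columns, a replicate block and each library left out.

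Same-numbered libraries deviated from their group means with correlations across genes of 0.13, 0.074 and 0.23 for replicates 2, 3 and 4. All are positive. Deviations from a group mean cancel within the group, so covariances between libraries of unlike number must sum to a negative value. Same-numbered libraries thus deviated more alike, on average, than those of unlike number. What the numbers mark is not stated in the sources used here. The main fits and the permutations use no pairing. With a replicate block as an alternative, SE fell from 0.198 to 0.149 for Cd28 and from 0.172 to 0.158 for Icos. It fell from 0.229 to 0.187 for Ctla4 and from 0.23 to 0.207 for Pdcd1, and 3446 genes changed, against 3082.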

Additional observations from a re-analysis of the deposited data

How the results depend on the processing

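Of the 4 members tested, Icos kept its direction and its call under all 17 alternatives. Library totals alone gave Cd28 -0.66 (edgeR adjusted p = 0.0103), Ctla4 -0.14 and Pdcd1 0.44 (edgeR adjusted p = 0.117) on the log2 scale, and all exons gave Ctla4 -0.013. Leaving out each library gave log2 changes of -0.59 to -0.17 for Cd28, 0.98 to 1.19 for Icos, -0.0012 to 0.33 for Ctla4 (the lowest without resting replicate 3) and 0.51 to 1.05 for Pdcd1, with 1 to 3 of the members changed. Without both libraries numbered 3, an alternative chosen after seeing the data, Pdcd1 was at 0.44 (edgeR adjusted p = 0.185) and 1 member changed. Over all genes, 2114 to 3659 changed under the alternatives, against 3082. With a replicate block the log2 changes were -0.34 for Cd28 (edgeR adjusted p = 0.0630), 1.08 for Icos, 0.20 for Ctla4 and 0.79 for Pdcd1 (edgeR adjusted p = 0.00336), and no call of a member changed.

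The leader change of Cd28 relative to its CDS, 0.04, was -0.18 to 0.26 without each library, at -0.18 without activated replicate 4, -0.06 without resting replicate 2 and -0.04 without resting replicate 3. The log2 difference of the Lag3 to Pdcd1 ratio, -0.17, was 0.24 in all exons and -0.62 to 0.12 without each library (0.06 without activated replicate 3, 0.12 without resting replicate 2). That of Pdcd1 to Icos was -0.46 to 0.082 (0.082 without resting replicate 4). The share of Lag3 in all CDS counts was 12.8 ± 5.07 per 1000000 in activated cells and 9.94 ± 5.26 per 1000000 in resting cells (SD, n = 3 each; exact permutation p = 0.5), a difference of 2.82 that was -0.11 to 5.86 without each library, with -0.11 without activated replicate 4. The causes were not tested. The alternatives for the fixed gene lists were not run, since no list could be named. Counts below about 20 per library, as for Lag3 and most leaders, limit what could be seen.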
